A study of Homo sapiens with 12 samples.

Results

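Cancer-testis and germline genes are 37 listed genes whose RNA is normally largely restricted to germ cells of the testis or ovary and which many tumours express again. A gene entered through a probe set that the platform annotation gives exactly 1 gene symbol, with the brightest probe set kept for each gene. On this rule 34 of the 37 were measured, among 18417 genes in all, and 25 of the 34 lay above the 20th percentile of their array on at least 3 of 12 arrays and were tested among 16939 genes. The remaining 3, MAGEA12, MAGEB1 and MAGEB4, are covered here by probe sets that name several genes and so have no value. By role the list holds 6 MAGE-A, 7 MAGE-B and 3 MAGE-C genes, 8 other X-linked antigens, 3 autosomal antigens, 5 genes of meiotic chromosomes and germ cell division, and 5 genes of germ granules and piRNAs. Of the 37, 24 lie on the X chromosome and 13 on autosomes.

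The arrays measured RNA of 2 human non-small cell lung cancer lines, HTB56 (H) and A549 (A), each as the unselected line (0R) and after 3 rounds of selection in vivo for growth in the lungs of mice injected through a vein (3R). There were 3 arrays in each of the 4 groups H3R, H0R, A3R and A0R, and the labels give every sample as untreated with 5-azacytidine, an inhibitor of DNA methyltransferases that is known to switch on cancer-testis genes. Each group is a cell line carried as a population, and the labels do not say whether its 3 replicates were separate cultures, so p-values measure the spread between these samples, which may be technical. One text field of an A549 sample spells the line A459, and the remaining labels give A549.

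In body cells most of these genes are held silent, and methylation of CG pairs in their promoters is the best known part of that silencing; germ cells and many tumours lose it. Repressive histone marks set by SETDB1 with TRIM28, and the E2F6-containing Polycomb complex, keep further germline genes off. The encoded proteins are targets of cancer vaccines and T cell therapies because few normal tissues show them, and several MAGE proteins act as partners of ubiquitin ligases.

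Array quality was even: medians over all probe sets lay between 5.55 and 5.67 on the log2 scale, arrays of a group correlated at 0.988 to 0.995 over all probe sets, and arrays of different lines at 0.949 to 0.961. Both lines are of epithelial origin, and several epithelial markers were dimmer in HTB56 than in A549. Epithelial cadherin CDH1 averaged 4.50 in H3R and 4.55 in H0R, against 8.68 in A3R and 9.53 in A0R. The keratin KRT8 averaged 11.45 in H3R and 11.20 in H0R, against 13.03 in A3R and 13.26 in A0R. KRT18 was bright in every group, between 12.64 and 13.55. Of the 10 tested epithelial markers 7 were lower and 1 higher in H0R than in A0R, where 45.2% of all genes were called. In H3R against H0R 1 was higher and 1 lower, and EPCAM averaged 7.34 in H3R and 6.32 in H0R. Summed marker signal was 13.28 to 13.33 in H3R, 13.25 to 13.38 in H0R, 14.62 to 14.65 in A3R and 14.66 to 14.82 in A0R. The array measured human RNA in bulk, so fewer cells with a transcript and less transcript per cell cannot be told apart. Of markers of spermatogenic cells, 11 of 15 were tested and limma called 0 in each of the 5 comparisons (at most 1 at an unadjusted p under 0.05), and their summed signal stayed between 7.91 and 8.16 on all arrays. Fibroblast markers summed to 11.49 to 11.75 in H3R and 11.30 to 11.56 in H0R. Of these, 4 of 10 tested were higher and 1 lower in H3R (50%, against 19.5% of all genes called). DCN, FAP, POSTN and MFAP5 never passed the 20th percentile. Leukocyte markers summed to 10.04 to 10.28 in H3R and 9.62 to 9.80 in H0R. LYZ and CD68 were called higher, or 13.3% of the 15 tested, and PTPRC, the marker of all leukocytes, was under the percentile throughout. Endothelial markers had 0 of 10 called in that comparison (1 at an unadjusted p under 0.05), at 8.74 to 8.91 in H3R and 8.70 to 8.79 in H0R. The part of these shifts in the results on selected HTB56 was not tested.

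The promoters of the 4 members on which the comparisons turn and which the sequence table holds are shown because CG pairs are where DNA methylation would act. Each is the 250 bases before an annotated start in RefSeq GRCh38.p14, read 5′ to 3′ on the gene's strand, with CG pairs in capitals. Where a gene had several starts, as PRAME with 3, the window with the most CG pairs was kept. The same choice was made for all genes counted below.
MAGEC2 promoter, chrX:142205291-142205540, minus strand: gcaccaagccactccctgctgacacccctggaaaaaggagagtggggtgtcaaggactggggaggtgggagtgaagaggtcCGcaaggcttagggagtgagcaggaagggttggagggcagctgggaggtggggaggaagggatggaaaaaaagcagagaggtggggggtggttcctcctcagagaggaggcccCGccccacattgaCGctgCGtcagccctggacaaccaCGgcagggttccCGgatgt
PRAME promoter, chr22:22559266-22559515, minus strand: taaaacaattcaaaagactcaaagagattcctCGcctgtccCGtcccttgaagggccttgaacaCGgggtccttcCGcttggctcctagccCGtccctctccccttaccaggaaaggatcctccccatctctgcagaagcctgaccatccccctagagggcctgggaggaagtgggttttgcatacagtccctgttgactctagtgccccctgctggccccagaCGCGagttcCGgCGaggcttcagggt
DDX53 promoter, chrX:22999710-22999959, plus strand: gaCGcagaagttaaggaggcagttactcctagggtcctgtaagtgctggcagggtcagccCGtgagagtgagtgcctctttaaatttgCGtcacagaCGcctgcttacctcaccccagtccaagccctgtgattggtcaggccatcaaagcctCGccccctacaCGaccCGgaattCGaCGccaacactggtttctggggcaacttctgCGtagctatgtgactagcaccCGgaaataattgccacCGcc
MAGEB2 promoter, chrX:30215313-30215562, plus strand: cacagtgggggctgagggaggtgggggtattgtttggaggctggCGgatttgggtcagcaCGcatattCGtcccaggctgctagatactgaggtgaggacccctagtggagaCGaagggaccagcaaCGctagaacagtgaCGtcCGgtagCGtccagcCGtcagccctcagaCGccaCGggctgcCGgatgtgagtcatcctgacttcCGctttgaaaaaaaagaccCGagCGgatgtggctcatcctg
The MAGEC2 window held 6 CG pairs, PRAME 9, DDX53 12 and MAGEB2 15. Over all 27305 genes of the table the median was 12, and 63.6% of genes had at least as many as MAGEC2, 56.6% as many as PRAME, 51.5% as many as DDX53 and 46.4% as many as MAGEB2. Of the members 31 had a window, with a median of 11 CG pairs and a range of 0 to 51. The letters CCGGAA, the core of an ETS-type site that contains a CG pair, were searched on both strands and occurred in 6 of the 31 (19.4%), against 15.5% of all genes; DDX53 held 2 copies and PRAME 1. TCCCGC, the core of an E2F-type site, was found on either strand in 5 members (16.1%, against 24.9% of all genes), and the palindrome CACGTG, an E-box, in 6 (19.4%, against 6.62%). MAGEC2 and MAGEB2 held none of the 3 motifs in these windows. No methylation was measured, and a match in a window is not a bound site.

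Most members were dim on every array. Of the 25 tested genes, 17 never reached 5 on the log2 scale, where the median tested gene stood at 6.67, and 19 varied by less than 1 log2 unit over all 12 arrays. The 6 that varied more were MAGEB2, HORMAD1, DDX53, MAGEC2, PRAME and MAGEA8. The 20th percentile itself lay between 3.44 and 3.51. Counted as not expressed, because they lay under it on all 12 arrays, were 7 genes: PAGE2 and PAGE4, 2 X-linked antigens of the PAGE family; SYCP1 and SYCP3, structural proteins of the synaptonemal complex that joins paired meiotic chromosomes; MAEL and TDRD1, which act in piRNA-guided silencing of transposons; and BRDT, the testis member of the bromodomain proteins that read acetylated histones. MAGEC1 passed on 1 array and TEX15 on 2, and both went untested. Just inside the threshold were MAGEB10, above the percentile on 5 arrays, and HORMAD1, above it on 6; just outside was TEX15, and PAGE4 came closest of those under it everywhere, with a highest value of 3.51.

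**Figure D1:**
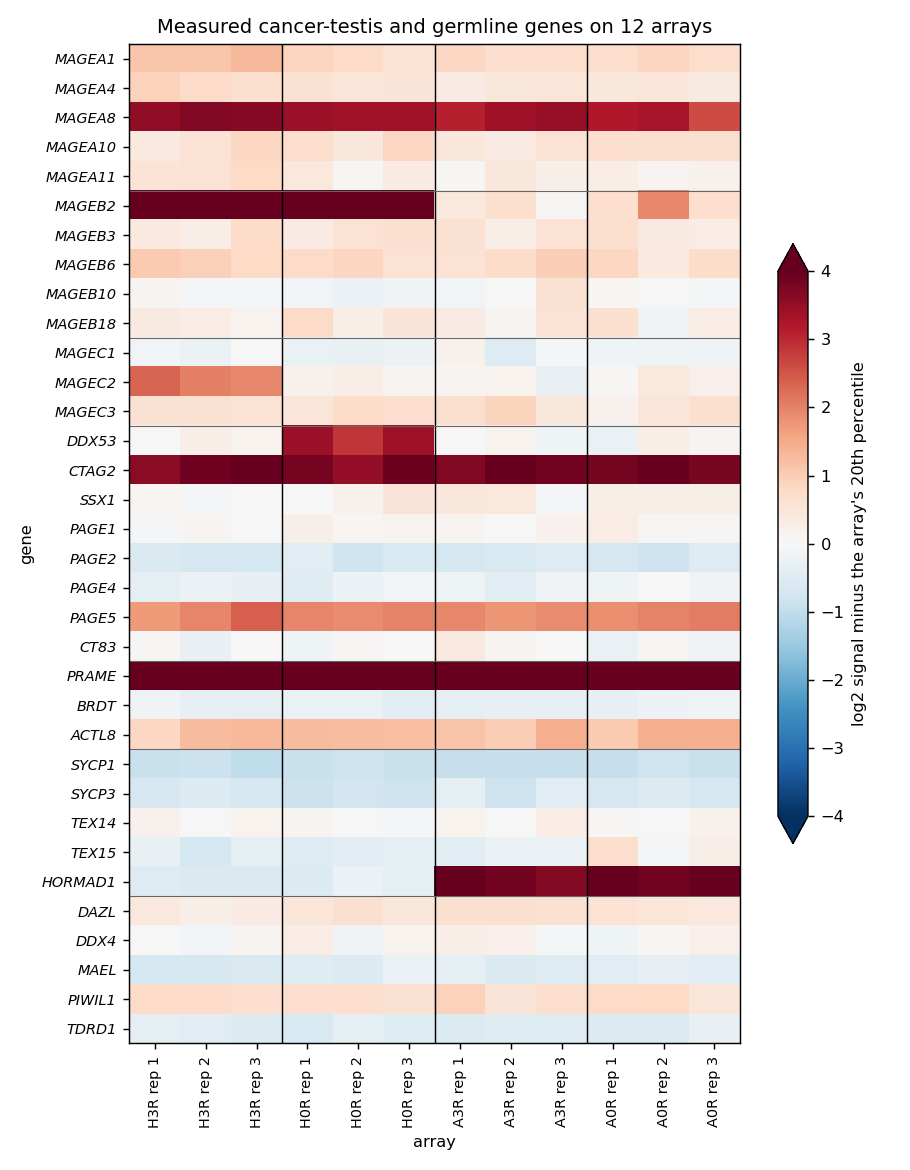
Log2 signal of the 34 measured genes (rows, grouped by role) on the 12 arrays (columns, 3 a group), as the distance from the array's 20th percentile; red is above, blue below, and colours stop at 4 either way. PRAME, CTAG2 and MAGEA8 are red on every array, MAGEB2 deep red only on the 6 HTB56 arrays, HORMAD1 only on the 6 A549 arrays, DDX53 on the 3 H0R arrays and MAGEC2, paler, on the 3 H3R arrays.

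Several members had a level that hardly moved with line or selection. CTAG2, the close relative of the antigen NY-ESO-1, lay between 6.96 and 7.54 on all arrays, PAGE5, an X-linked antigen, between 5.18 and 5.88, ACTL8, an actin-like protein of the testis, between 4.28 and 4.97, and PIWIL1, a protein that binds piRNAs, between 3.97 and 4.40. None of these 4 was called in any comparison. TEX14, of the meiotic class, was dim, between 3.41 and 3.80, and was not called in any comparison either. MAGEA8, a MAGE-A gene of little known function, lay at 6.11 to 7.19, and its lowest array was A0R replicate 3. Near-identical copies are common among MAGE-A, CTAG and PAGE genes, so the signal of one may include RNA of another, and such values are uncertain as to the copy.

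The first comparison of the design is the selected against the unselected population of each line. A3R and H3R are the only selected groups, and the labels describe no independent selections within a line. An effect of selection cannot be told apart from other differences between these populations. In selected HTB56, 3 of 25 tested members rose, MAGEC2, PRAME and MAGEA1, and 1 fell, DDX53, at a limma adjusted p under 0.05 over all genes. That is 16.0% of the members, where 19.5% of all 16939 genes were called (8.57% higher and 10.9% lower), so the members were called about as often as genes at large. MAGEC2 was 3.85-fold, PRAME 2.54-fold and MAGEA1 1.38-fold higher, and DDX53 was 8.29-fold lower. The median change of the members was 0.10, against 0.02 over all genes. The 21 members not called had changes between -0.22 and 0.49, and their 95% intervals reached from -0.60 to 1.05, so differences up to about that size were not resolved.

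MAGEC2, a MAGE protein that binds the corepressor TRIM28, had 5.80, 5.50 and 5.42 in H3R, against 3.60, 3.69 and 3.59 in H0R. All 3 H0R arrays sat just above the 20th percentile, every H3R array was well above it, and the groups did not overlap. In A549 the gene was at 3.58, 3.65 and 3.20 in A3R and 3.51, 3.93 and 3.71 in A0R, so H3R was the only group with signal clear of the percentile. The change in HTB56 was 1.94 (SE 0.14, 95% interval 1.64 to 2.25, adjusted p = 3.1e-07). Its relatives MAGEC1 and MAGEC3 did not follow: MAGEC1 lay between 3.14 and 3.48 on the HTB56 arrays, and MAGEC3 had 4.07, 4.09 and 4.08 in H3R, against 3.92, 4.18 and 4.15 in H0R.

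PRAME, a repressor of retinoic acid receptor signalling and an adaptor of a ubiquitin ligase, was bright everywhere. It had 11.06, 11.06 and 10.94 in H3R, against 9.56, 9.82 and 9.65 in H0R. The H0R arrays were the lowest of the 12 and the H3R arrays the highest. The change was 1.35 (SE 0.10, 95% interval 1.14 to 1.55, adjusted p = 1.96e-07). In A549 the 3 A3R arrays had 10.41, 10.39 and 10.34 and the A0R arrays 10.47, 10.49 and 10.53, between the levels of H3R and H0R, and the A549 change of -0.12 was not called.

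MAGEA1, the first human tumour antigen found through T cells, had 4.56, 4.59 and 4.80 in H3R, against 4.32, 4.20 and 4.05 in H0R. The groups did not overlap, but all values were low. The change was 0.46 (SE 0.11, 95% interval 0.23 to 0.69, adjusted p = 0.00633). MAGEA4, a T cell therapy target that binds the ubiquitin ligase RAD18, had 4.40, 4.26 and 4.14 in H3R, against 4.05, 3.91 and 4.0 in H0R, and MAGEA11, a coregulator of the androgen receptor, had 4.0, 4.07 and 4.30, against 3.88, 3.50 and 3.83. Neither of these 2 overlapped between groups, but nor did other uncalled members with small changes, such as PIWIL1 (0.11) and DAZL (-0.17). A lack of overlap between groups of 3 therefore says little. MAGEA4 and MAGEA11 did not pass the test: MAGEA4 differed by 0.28 (SE 0.10, adjusted p = 0.0672) and MAGEA11 by 0.39 (SE 0.13, adjusted p = 0.0561). With the replicate number as a block both passed, at 0.0385 and 0.0468, which gave 5 higher and 1 lower member, where 28.0% of all genes were called with the block. These 2 were also the members that passed at an unadjusted p under 0.05 beyond the 4 called, a mark that 28.9% of all genes reached. MAGEA8 and MAGEA10, the other 2 of the MAGE-A genes tested, were not called (MAGEA8 0.27, adjusted p = 0.292).

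DDX53, a DEAD-box RNA helicase also known as the antigen CAGE, stood high in unselected HTB56 alone. It had 3.49, 3.75 and 3.63 in H3R, against 6.88, 6.29 and 6.86 in H0R. Every H3R array had come down to the level of the 20th percentile, where the 6 A549 arrays also were, between 3.23 and 3.78. The change was -3.05 (SE 0.17, 95% interval -3.41 to -2.69, adjusted p = 1.7e-08). Of the other 5 tested X-linked antigens outside the MAGE family (CTAG2, SSX1, PAGE1, PAGE5 and CT83) 0 were called in selected HTB56, with changes between -0.20 (SSX1) and 0.11 (PAGE5).

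MAGEB2, a MAGE protein of stress granule control, was bright in both HTB56 groups, with 10.11, 9.98 and 9.94 in H3R, against 9.55, 9.55 and 9.46 in H0R. The change of 0.49 (SE 0.26, 95% interval -0.07 to 1.05) missed the threshold at adjusted p = 0.24. The variance of a gene is shared over all 12 arrays, and A0R replicate 2 stood far from its group at 5.44. Without that array the adjusted p was 0.0177, and with only the 6 HTB56 arrays 0.00544. The remaining 4 tested MAGE-B genes, MAGEB3, MAGEB6, MAGEB10 and MAGEB18, were dim, and none was called in any comparison.

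**Figure D2:**
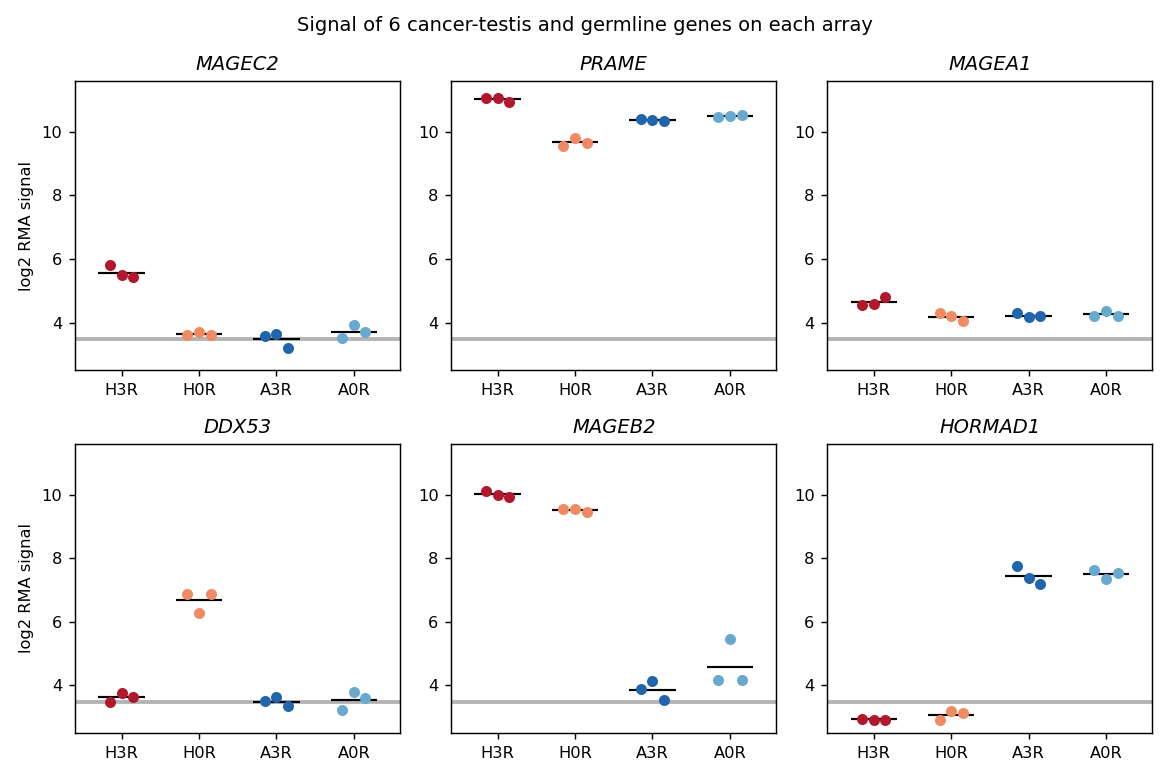
Log2 RMA signal of 6 genes on each of the 12 arrays (points), with the group mean as a bar and the range of the arrays' 20th percentiles, 3.44 to 3.51, as a grey band. H3R stands apart upward for MAGEC2 and PRAME, H0R alone is high for DDX53, both HTB56 groups are high for MAGEB2 and both A549 groups for HORMAD1; the single high A0R point of MAGEB2 is replicate 2.

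In selected A549 0 of 25 members were called by limma, where 1.75% of all genes were (3.32% with the replicate block, which also called 0 members). At an unadjusted p under 0.05 there were 2 members, and 9.97% of all genes passed that. They were MAGEB2, at 3.88, 4.13 and 3.54 in A3R, against 4.16, 5.44 and 4.16 in A0R (change -0.74, SE 0.26, adjusted p = 0.265), and CT83, a lung cancer antigen, at 3.86, 3.62 and 3.53, against 3.22, 3.57 and 3.34 (change 0.29, adjusted p = 0.475). The MAGEB2 value rests on A0R replicate 2: without it the change was -0.31 and its adjusted p 0.558. The 95% intervals of the 25 members reached from -1.30 to 0.62. HORMAD1, which A549 expressed and HTB56 did not, had 7.75, 7.37 and 7.18 in A3R, against 7.62, 7.36 and 7.52 in A0R, and these overlapped.

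That 1 array was high for more than MAGEB2. Over 11 genes that were above 8 on all HTB56 arrays and had a median under 4.5 in A549, with the members left out, A0R replicate 2 stood 0.84 above the A549 median and was above it for 11 of 11. The other 5 A549 arrays deviated by -0.14 to 0.05. For 28 genes with the opposite pattern the HTB56 arrays deviated by -0.12 to 0.22, H0R replicate 2 being the highest. This comparison was chosen after the MAGEB2 values were seen, and its part in the MAGEB2 results was not tested beyond the values without the array.

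Whether the change from unselected to selected population differed between the lines was tested as the difference of the changes, HTB56 minus A549. Limma called 5 of 25 members, 4 higher and 1 lower, where 11.8% of all genes were called (5.22% higher and 6.58% lower; 20.4% with the replicate block, which called the same number of members). MAGEC2 differed by 2.18 (SE 0.20, adjusted p = 7.24e-06), PRAME by 1.47 (SE 0.13, adjusted p = 6.1e-06) and DDX53 by -3.00 (SE 0.24, adjusted p = 1.92e-06). MAGEB2 differed by 1.23 (SE 0.37, adjusted p = 0.0423) and by 0.80 without A0R replicate 2 (adjusted p = 0.0198). MAGEA1 differed by 0.49 (SE 0.15, adjusted p = 0.0462), a call that only 6 of 20 alternatives kept. The 20 members not called differed by -0.32 to 0.34.

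**Figure D3:**
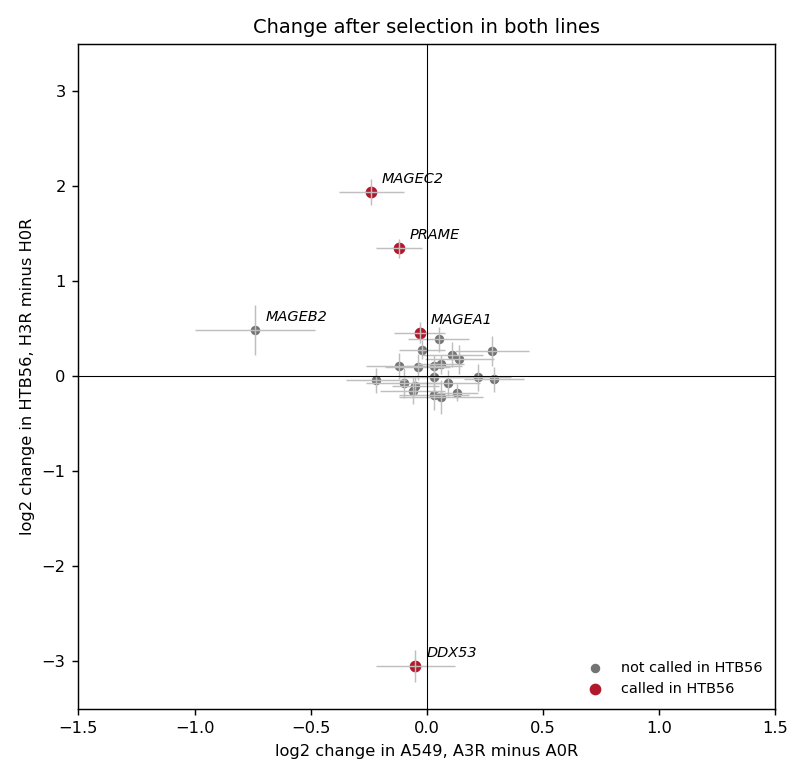
Log2 change after selection of the 25 tested genes in HTB56 (H3R minus H0R, vertical) against A549 (A3R minus A0R, horizontal, a narrower scale), with standard errors as lines; red points were called in HTB56. MAGEC2 at 1.94, PRAME at 1.35 and DDX53 at -3.05 lie far along the HTB56 axis and between -0.24 and -0.05 on the A549 axis, where no gene was called.

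Among the tested members the unselected lines stood furthest apart in MAGEB2 and HORMAD1. Comparisons between lines share arrays with those within a line, so the values are given side by side. Between unselected lines 4 of 25 members were called, 2 higher and 2 lower in H0R, where 45.2% of all genes were called (24.9% higher and 20.3% lower; 53.7% with the replicate block, which also called 4 members). MAGEB2 was 9.52 ± 0.05 in H0R and 4.59 ± 0.74 in A0R (SD, n = 3 each), a difference of 4.93 (30.4-fold, SE 0.26, adjusted p = 8.8e-10, and 5.36 without A0R replicate 2). DDX53 was 6.68 ± 0.34 in H0R and 3.54 ± 0.28 in A0R, higher by 3.14 (SE 0.17, adjusted p = 1.13e-09). HORMAD1, a protein of the meiotic chromosome axis that promotes recombination, was 3.08 ± 0.16 in H0R and 7.50 ± 0.13 in A0R, with no overlap. It lay under the 20th percentile on all 6 HTB56 arrays and passed the filter only through the 6 A549 arrays, so it had to differ between the lines; its levels are a description, and its calls in the counts between lines support nothing. PRAME was 9.67 ± 0.13 in H0R and 10.50 ± 0.03 in A0R (change -0.83, SE 0.10, adjusted p = 4.26e-06).

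Between the selected lines 8 of 25 members were called, 6 higher and 2 lower in H3R, where 44.6% of all genes were called (24.9% higher and 19.7% lower; 52.7% with the replicate block, which also called 8 members). The sign of PRAME turned: 11.02 ± 0.07 in H3R and 10.38 ± 0.04 in A3R, a difference of 0.64 (SE 0.10, adjusted p = 5.7e-05). DDX53, no longer high in HTB56, differed by 0.14 (SE 0.17, adjusted p = 0.553). MAGEB2 was 10.01 ± 0.09 in H3R and 3.85 ± 0.30 in A3R, a difference of 6.16 (SE 0.26, 71.5-fold, adjusted p = 1.02e-10), and HORMAD1, again as a description, was 2.92 ± 0.03 in H3R and 7.44 ± 0.29 in A3R. MAGEC2 was higher in H3R by 2.10 (SE 0.14, adjusted p = 2.04e-08). Of the 5 tested MAGE-A genes, 3 were higher in H3R: MAGEA1 by 0.43 (adjusted p = 0.00389), MAGEA4 by 0.36 (adjusted p = 0.00855) and MAGEA11 by 0.40 (adjusted p = 0.0248). In H0R against A0R these 3 differed by -0.06, 0.06 and 0.06 and were not called, but the test of the difference of the changes did not pass for MAGEA4 (0.30, adjusted p = 0.22) or MAGEA11 (0.34, adjusted p = 0.309). MAGEA8 differed by 0.31 in H0R against A0R (adjusted p = 0.134), and by 0.45 without A0R replicate 2 (adjusted p = 0.0411). The MAGEA11 call was lost without A3R replicate 1 (0.116), A3R replicate 3 (0.0517) or H3R replicate 3 (0.106). DAZL, an RNA-binding protein of germ cells, had 3.88, 3.73 and 3.82 in H3R, against 4.11, 4.14 and 4.09 in A3R, a small difference of -0.30 (SE 0.09, adjusted p = 0.0149) that was lost without H3R replicate 2 (0.0687). TEX15, a germ cell gene needed for meiosis in mice, had 3.05, 3.23 and 3.22 in A3R, against 4.19, 3.45 and 3.72 in A0R. Its HTB56 arrays lay between 2.79 and 3.16, and it was untested under the filter; with no filter it was called in H0R against A0R (change -0.77, adjusted p = 0.00102), which made 5 members in that comparison in place of 4.

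Whether the members' neighbours on the chromosome moved too was examined over the 10 tested protein-coding genes on each side in RefSeq order, a comparison chosen after the members' values were seen. Around PRAME on chromosome 22, 0 of 20 neighbours were called by limma in selected HTB56 (2 at an unadjusted p under 0.05), with changes between -0.35 and 0.25. Of all genes 19.5% were called in that comparison. Around DDX53 on the X chromosome 3 neighbours were higher and 2 lower, between -0.85 and 0.49, and the nearest ones, CBLL2 and PTCHD1, differed by 0.14 and 0.08. Around MAGEC2 4 were higher and 2 lower, between -0.94 and 0.88, and the nearest, MAGEC3, which is dim, and SLITRK4, differed by -0.01 and 0.01. The 4 higher ones, FMR1 (0.79), IDS (0.88), EOLA1 (0.42) and TMEM185A (0.39), all lie after MAGEC2, at places 3 to 8. MAGEA11 and MAGEA8, not called, follow them. The 2 lower ones, ARHGEF6 (-0.83) and MCF2 (-0.94), lie on the other side. Whether MAGEC2 changed together with that raised run was not tested. Around MAGEA1, however, 9 of 20 neighbours were higher and 0 lower, with a median of 0.18, where 8.57% of all genes were called higher. They included GABRA3 (1.97), a receptor subunit for GABA, ZNF185 (1.78), CSAG1 (1.07), which is itself a cancer-testis gene, and NSDHL (0.85), an enzyme of cholesterol synthesis. Of the called neighbours only CETN2 (0.38) had a smaller change than MAGEA1 (0.46). Around MAGEB2 on the X chromosome 2 of 20 neighbours were higher and 4 lower in H0R than in A0R. Their changes lay between -1.42 and 1.91, and 45.2% of all genes were called in that comparison. The nearest, IL1RAPL1 and MAGEB3, which is dim, differed by 1.91 (limma adjusted p = 4.51e-08) and 0.04. In H3R against A3R they differed by 1.66 (limma adjusted p = 2.56e-07) and -0.01. Whether MAGEB2 and IL1RAPL1 differ together was not tested. Around HORMAD1 on chromosome 1, 7 of 20 neighbours were higher and 4 lower in H0R than in A0R, where 45.2% of all genes were called. Their median was 0.06, with changes between -2.94 (CTSS, a cathepsin) and 0.89 (ECM1, a matrix protein).

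**Figure D4:**
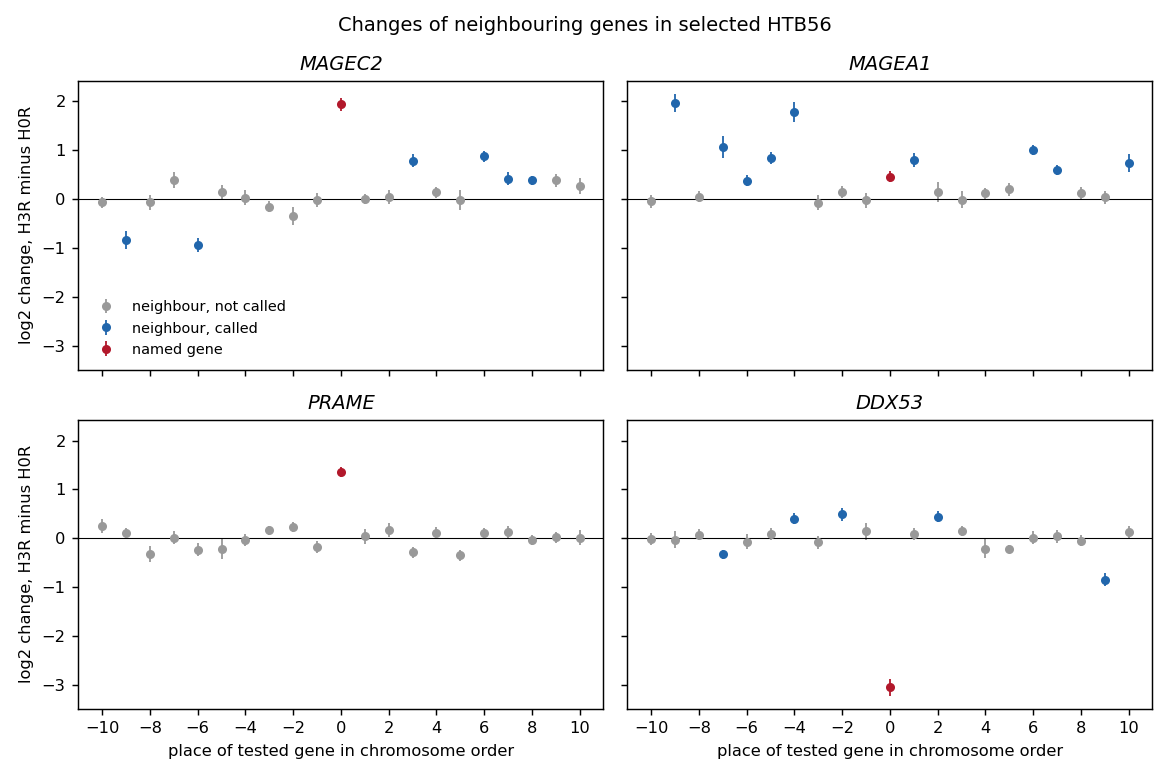
Log2 change in HTB56 (H3R minus H0R, vertical, with standard errors) of 4 members (red, at place 0) and of the 10 tested protein-coding genes on either side in chromosome order (horizontal); blue neighbours were called, grey ones not. PRAME stands above neighbours of which none was called, DDX53 lies far below and MAGEC2 far above theirs, and MAGEA1 lies below several raised neighbours.

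Other genes of the same kind were read from lists of further family and pathway members. Of 81 more X-linked cancer-testis genes 42 had a usable probe set, 14 never passed the 20th percentile and 26 were tested. In selected HTB56 1 of the 26 was called, CSAG1 (3.85%, against 19.5% of all genes), and in selected A549 0 (1 at an unadjusted p under 0.05). CSAG1, a centrosome protein gene beside the MAGE-A cluster, had 6.92, 7.0 and 6.78 in H3R, against 6.10, 5.73 and 5.65 in H0R (change 1.07, SE 0.22, adjusted p = 0.00307). In A549 it was dim, with 2.90, 3.90 and 3.99 in A3R and 3.51, 3.61 and 3.78 in A0R, and it was higher in HTB56 both after selection (3.31 in H3R over A3R, adjusted p = 1.62e-08) and before (2.20 in H0R over A0R, adjusted p = 1.09e-06), as MAGEB2 was. IL13RA2, a decoy receptor for interleukin 13, was the other gene of this list called higher in HTB56, by 2.31 in H0R over A0R. Of the 26 genes, 2 were higher and 1 lower in H0R than in A0R (11.5%, against 45.2% of all genes). In H3R against A3R 2 were higher and 0 lower (7.69%, against 44.6% of all genes). Of 10 MAGE genes with broad expression in normal tissues, MAGED1, which binds a neurotrophin receptor, was the 1 called in selected A549: 10.08, 9.97 and 10.27 in A3R, against 9.28, 9.38 and 9.65 in A0R (change 0.67, SE 0.12, adjusted p = 0.00839; 0.0507 without A0R replicate 1). Of all genes 1.75% were called in selected A549 and 19.5% in selected HTB56. In HTB56 0 of these 10 MAGE genes were called after selection (2 at an unadjusted p under 0.05). For MAGED1 the difference of the changes by limma, HTB56 minus A549, was -1.0 (adjusted p = 0.00118).

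Among 68 tested autosomal cancer-testis genes, 4 were higher and 3 lower in H3R than in H0R (10.3%, against 19.5% of all genes). In A3R against A0R 0 were higher and 2 lower (2.94%, against 1.75% of all genes). LIN28B, an RNA-binding protein of fetal and germ cells that blocks maturation of the let-7 family, went opposite ways: 8.16, 8.16 and 8.22 in H3R, against 6.87, 6.51 and 6.70 in H0R (change 1.48, SE 0.11, adjusted p = 4.77e-07), and 4.93, 4.92 and 4.66 in A3R, against 5.74, 5.72 and 5.55 in A0R (change -0.83, SE 0.11, adjusted p = 0.00109). DSCR8 had 4.54, 4.54 and 3.87 in H3R, against 2.96, 2.75 and 2.79 in H0R, and lay between 2.71 and 3.07 on the A549 arrays. It passed the filter only through the 3 H3R arrays and so had to differ, and these values are a description with no test. DSCR8 is among the 68 tested genes. The count in H3R against H0R thus holds an outcome that the filter fixed and that supports nothing.

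Of 24 tested meiotic chromosome genes beyond the members, 3 were higher and 3 lower in H3R than in H0R (25%, against 19.5% of all genes). No change was over 0.48 in size, and 0 were called in A549 (1 at an unadjusted p under 0.05). Between unselected lines 5 were higher and 6 lower in H0R, or 45.8% of the list, where 45.2% of all genes were called. HSF2BP, a partner of the recombination protein BRCA2, had 7.09, 7.26 and 7.59 in H0R, against 5.70, 6.02 and 5.97 in A0R (change 1.42, SE 0.14, adjusted p = 1.17e-06), and MND1, a cofactor of meiotic recombination, was higher too (change 0.69, SE 0.14, adjusted p = 0.00113). MEIOC, which prolongs meiotic prophase, was at 3.43, 3.42 and 3.60 in H0R, against 6.30, 5.88 and 6.47 in A0R (change -2.73, SE 0.22, adjusted p = 1.02e-07), and DMC1, the meiotic recombinase, was at 3.57 ± 0.23 in H0R and 5.37 ± 0.32 in A0R (change -1.81, SE 0.17, adjusted p = 5.85e-07). Of 27 tested piRNA and germ granule genes 2 were higher and 1 lower in H3R than in H0R (11.1%, against 19.5% of all genes). HENMT1, the methyltransferase that protects piRNA ends, had 5.23, 5.29 and 5.53 in H3R, against 3.88, 3.59 and 3.91 in H0R (change 1.56, SE 0.13, adjusted p = 9.91e-07), and averaged 5.70 ± 0.21 in A3R and 5.53 ± 0.07 in A0R. TDRKH, a Tudor protein that tethers PIWI proteins to mitochondria, had 6.38, 6.29 and 6.46 in H3R, against 7.42, 7.68 and 7.54 in H0R (change -1.18, SE 0.11, adjusted p = 4.05e-06). The members of this class, DDX4, DAZL and PIWIL1, were not called in either line after selection.

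Genes that set, read or remove silencing marks were measured beside the members, and all 49 tested were above the percentile. In selected HTB56 4 were higher and 8 lower (4 and 14 with the replicate block), or 24.5% of the list, where 19.5% of all genes were called. The median was -0.06, against 0.02 over all genes. In selected A549 0 were higher and 1 was lower (2.04%, against 1.75% of all genes). MPHOSPH8, a subunit of the HUSH complex that spreads histone methylation, had 7.97, 8.04 and 8.20 in H3R, against 9.02, 8.97 and 9.10 in H0R (change -0.96, SE 0.10, adjusted p = 7.56e-06). TET2, which oxidises methylated cytosine and so removes the mark, was lower too (change -0.83, SE 0.18, adjusted p = 0.00375). DNMT1, which copies DNA methylation at replication, did not pass in either line after selection (-0.06 in HTB56 and 0.01 in A549). DNMT3A, which sets new methylation, was lower in H3R (-0.40, adjusted p = 0.0117; 0.0522 without H0R replicate 3), and UHRF1, the partner of DNMT1, was lower too (change -0.39, adjusted p = 0.0358), a call lost when any 1 of H0R replicates 1 and 2 or the H3R replicates was left out (0.0573 to 0.16). DNMT3B was the gene lower in selected A549, at 5.44, 5.79 and 5.58 in A3R, against 6.29, 6.30 and 6.17 in A0R (change -0.65, SE 0.11, adjusted p = 0.00488). TRIM28, SETDB1 and E2F6 were not called after selection in either line, with changes between -0.34 and 0.18.

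Between unselected lines 24 of these 49 genes were higher and 4 lower in H0R, or 57.1% of the list, where 45.2% of all genes were called (24.9% higher and 20.3% lower). The median of the list was 0.29, against -0.01 over all genes. DNMT1 was higher by 0.92 (SE 0.11, adjusted p = 7.21e-06) and DNMT3B was lower (change -0.89, SE 0.11, adjusted p = 7.7e-06). The lists were described by these counts and no test of a list was made.

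**Figure D5:**
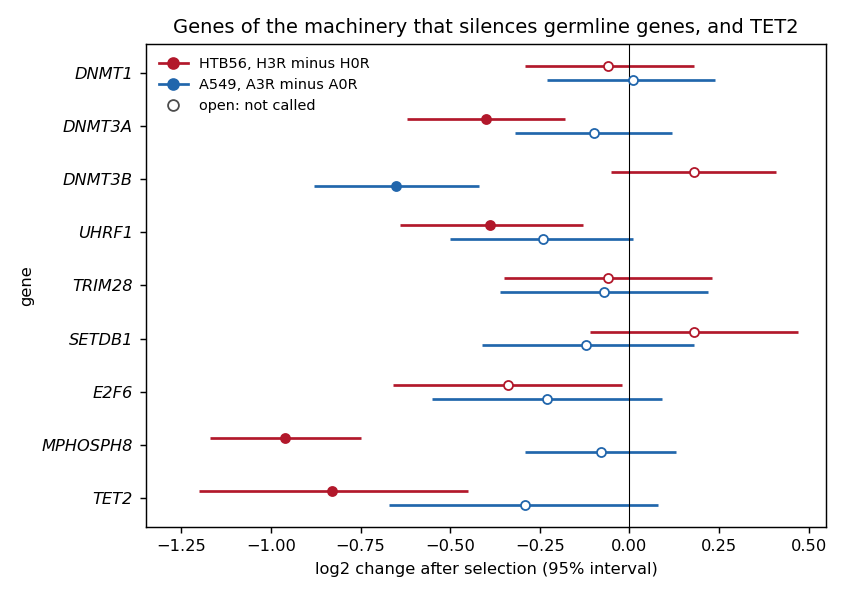
Log2 change after selection, with 95% intervals, of 8 genes of germline gene silencing and of TET2 in HTB56 (H3R minus H0R, red) and in A549 (A3R minus A0R, blue); filled points were called. MPHOSPH8, TET2, DNMT3A and UHRF1 were lower in selected HTB56, DNMT3B was lower in selected A549, and DNMT1 lies near 0 in both.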

How the data were processed

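RNA of 12 samples was measured on Affymetrix whole-transcript arrays. The deposited table holds log2 values that the authors made by RMA with the Expression Console software of Affymetrix, as the submitters' processing notes state, without versions in those notes. The method subtracts background and quantile-normalizes, which compresses differences of dim genes and removes a uniform shift; scanner files were not used. Of 33297 probe sets 19460 had 1 gene symbol, 1754 several and 12083 none listed.

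A gene was tested where its brightest probe set passed its array's 20th percentile on at least 3 of 12 arrays (16939 genes). Limma 3.58.1 in R 4.3.3 fitted 1 mean per group over all 12 arrays (lmFit, eBayes, two-sided, Benjamini-Hochberg over all genes tested, threshold 0.05); the code was tested on simulated data. The number of arrays limits precision. Values are mean ± SD over 3 arrays. Members, lists and tests were chosen with earlier results of these data known. Named were all members, up to 2 called genes per list, direction and comparison, and 7 silencing genes (DNMT1, DNMT3A, DNMT3B, UHRF1, TRIM28, SETDB1, E2F6). Neighbours, and a check of A0R replicate 2, came after values were seen.

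Same-numbered arrays of different groups deviated together (r 0.160 to 0.549 over 18 pairs; -0.417 to 0.205 otherwise), so the number was also fitted as a block. What it stands for is not stated in the labels.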

Additional observations from a re-analysis of the deposited data

Results flagged for a closer look

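In 5 genes the change after selection differed between the lines by limma's test of the difference, HTB56 minus A549. DDX53 differed by -3.00 (adjusted p = 1.92e-06), MAGEC2 by 2.18 (adjusted p = 7.24e-06) and PRAME by 1.47 (adjusted p = 6.1e-06), and these calls were kept under every alternative that tested them. MAGEB2 differed by 1.23 (adjusted p = 0.0423), kept in 11 of 21 alternatives, and its A549 part rests on A0R replicate 2. MAGEA1 differed by 0.49 (adjusted p = 0.0462), kept in 6 of 20.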

How the results depend on the processing

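The changes called for members kept their call in 417 of 448 values, lost it in 31 and reversed in 0. That total includes HORMAD1, with 22 of 22 kept in each comparison between lines, an outcome that the filter fixed. It also includes the mean over probe sets, though 0 members had several, and the 0.01 threshold, which refitted nothing. The total is therefore no measure of robustness. In selected HTB56 4 members were called, 2 under a 50th-percentile filter on signal and 6 with the replicate block. With weights that limma estimated for each array there were 6, and with 1 replicate left out 4 to 5. For the difference of the changes, HTB56 minus A549, the count was 5. It was 3 under the 50th-percentile filter, with cyclic loess or at an adjusted p below 0.01. With the block the count was 5, and with 1 replicate left out 3 to 4. Between selected lines it was 8, 3 under the 50th-percentile filter, 8 with the block and 7 to 9 with 1 replicate left out. With array weights it was 10, with MAGEA8, SSX1 and CT83 added and MAGEA11 lost. At an adjusted p below 0.01 it was 6. Between unselected lines it was 4, 5 with no filter (TEX15 added), 4 with the block and 4 to 5 with 1 replicate left out. In selected A549 it was 0, 0 with the block and 0 to 0. The stricter filter tests fewer genes and drops dim members, MAGEC2 and MAGEA1 among them. Members detected numbered 25, 33 at the 10th percentile and 14 at the 30th. The block changed no other member call than MAGEA4 and MAGEA11 in selected HTB56. Most members lie near the floor of the arrays, where RMA understates differences, and background correction could not be varied.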
